A study of Mus musculus with 12 samples.

Results

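The oligoadenylate synthetase (OAS) genes of the mouse were followed in RNA sequencing of cells labelled as primary cardiac fibroblasts. The 8 genes Oas1a, Oas1b, Oas1c, Oas1g, Oas2, Oas3, Oasl1 and Oasl2 were listed by gene symbol, and 7 of them have a row among the 24619 genes of the deposited counts table; Oas1b was not analysed here. They were chosen by their family name and by their levels in one comparison, that of TGF_KD_CM with TGF_VEC_CM, where they were already known to stand high. In that comparison their values are therefore given as a description, with no test.

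OAS proteins sense double-stranded RNA, as made by many viruses, and then join ATP into short oligoadenylates. These small signal molecules lead to the cutting of viral and cellular RNA and so to a stop of protein synthesis. The genes are classic targets of interferon, whose receptors act through a complex that includes STAT2 and IRF9, and fibroblasts are among the cells in which this response has been much studied.

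The 12 libraries of messenger RNA form 4 groups of 3. All the fibroblasts were serum-starved and then kept in conditioned medium, that is, culture medium taken from other cells, here adipocytes infected with a lentivirus. In TGF_KD_CM the fibroblast-activating growth factor TGF-beta1 was combined with the medium of adipocytes in which the human microRNA hsa-miR-548ay was inhibited. TGF_VEC_CM combined TGF-beta1 with the medium of adipocytes carrying the vector. OE_CM received the medium of adipocytes overexpressing hsa-miR-548ay, and VEC_CM that of vector adipocytes, both without TGF-beta1 in their labels. Every group received medium from virus-infected cells, and no group without conditioned medium was analysed here. The labels leave unsaid how TGF-beta1 was given, whether replicate libraries are separate cultures, and whether the groups with and without TGF-beta1 were run together. P-values therefore cover only the library-to-library spread within these groups, possibly a technical one.

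The libraries held between 33379207 and 37226153 counts, so that 3 counts, the lower limit used here, stood for 0.0806 to 0.0899 CPM, that is, counts scaled to a common library size. Of the fibroblast markers, Col1a1 and Vim had at least 47123 and 64068 counts in every library, while Dcn had at most 10, Lum at most 1 and Thy1 at most 18. The defining fibroblast genes Dcn and Lum were thus close to absent, and the label was kept with that limit. The 13 leukocyte markers summed to 33.1 to 35.7 CPM in TGF_KD_CM, against 37.3 to 40.9 CPM in TGF_VEC_CM. Lyz2 made up much of that sum (14.8 CPM in TGF_KD_CM and 20.3 CPM in TGF_VEC_CM). Cd14 went the other way (8.43 CPM in TGF_KD_CM and 6.33 CPM in TGF_VEC_CM). In OE_CM the 13 markers summed to 24.0 to 40.9 CPM, against 48.3 to 51.1 CPM in VEC_CM. None of the 13 was at 0 in all libraries, though the T cell marker Cd3e and the plasmacytoid dendritic cell marker Siglech had at most 1 count. Adipocyte markers summed to 152 to 163 CPM in TGF_KD_CM, against 186 to 198 CPM in TGF_VEC_CM, and to 97.5 to 102 CPM in OE_CM, against 265 to 279 CPM in VEC_CM. Fabp4 alone made up most of that sum (85.7 CPM in OE_CM and 260.5 CPM in VEC_CM), while Cidec went the other way (13.2 CPM in OE_CM and 7.92 CPM in VEC_CM). Cardiomyocyte markers summed to 99.4 to 105 CPM in TGF_KD_CM, against 107 to 118 CPM in TGF_VEC_CM, and to 165 to 169 CPM in OE_CM, against 72.3 to 77.6 CPM in VEC_CM. Nearly all of it was Tnnt2 (162.5 CPM in OE_CM and 71.9 CPM in VEC_CM), and Ttn (1.81 CPM in OE_CM and 2.32 CPM in VEC_CM) and Ryr2 were not called in that comparison. Endothelial markers stayed at or under 1.80 CPM. The part of other cell types in the results was not tested.

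The family sits on mouse chromosome 5 in 2 clusters (RefSeq, GRCm38.p6). Oasl2 (114896926 to 114912245, NCBI gene 23962) and Oasl1 (114923143 to 114937911, gene 231655) lie side by side on the plus strand. Further along the chromosome, 10 genes fill 191.3 kb. Among them Oas2 (120730333 to 120749886, gene 246728), Oas3 (120753098 to 120777684, gene 246727), Oas1c (120800194 to 120812540, gene 114643), Oas1g (120876142 to 120887613, gene 23960) and Oas1a (120896256 to 120907544, gene 246730) are on the minus strand. Oas1b (120812635 to 120824163, gene 23961) runs the other way from a point 94 bases beyond the end of Oas1c, and RefSeq lists it as a transcribed pseudogene. The other 4 genes of the cluster, Oas1d, Oas1e, Oas1f and Oas1h, had at most 6 counts in any library and did not pass the filter on low counts.

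The promoter windows of 4 members are printed because they share an interferon-type motif, and because they show how alike Oas1a and Oas1g are. Each window runs from 250 bases before to 50 bases after the start that the RefSeq GRCm38.p6 promoter table uses, 5′ to 3′ on the gene's own strand. That start lies 19 bases inside the gene bounds given above for Oas1a, 25 for Oas3 and 26 for Oas1c, and coincides with them for Oas1g. The table holds 6 of the 8 members (not Oas1b or Oas2). Capitals mark exact matches, on either strand, to GAAANNGAA, the core of the interferon-stimulated response element. The windows are chr5:120907476-120907775 for Oas1a, chr5:120887564-120887863 for Oas1g, chr5:120777610-120777909 for Oas3 and chr5:120812465-120812764 for Oas1c, all on the minus strand.
Oas1a: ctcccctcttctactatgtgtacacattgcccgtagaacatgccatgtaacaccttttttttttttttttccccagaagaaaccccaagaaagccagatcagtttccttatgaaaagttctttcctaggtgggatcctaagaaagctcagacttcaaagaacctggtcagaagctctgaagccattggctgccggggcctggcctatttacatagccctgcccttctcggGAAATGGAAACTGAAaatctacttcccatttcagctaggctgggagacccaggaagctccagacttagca
Oas1g: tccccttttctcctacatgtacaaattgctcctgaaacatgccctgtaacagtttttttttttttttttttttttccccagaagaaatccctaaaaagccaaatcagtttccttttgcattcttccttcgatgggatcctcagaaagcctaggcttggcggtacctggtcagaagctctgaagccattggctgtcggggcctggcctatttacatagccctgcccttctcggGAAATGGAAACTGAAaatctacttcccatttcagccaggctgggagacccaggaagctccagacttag
Oas3: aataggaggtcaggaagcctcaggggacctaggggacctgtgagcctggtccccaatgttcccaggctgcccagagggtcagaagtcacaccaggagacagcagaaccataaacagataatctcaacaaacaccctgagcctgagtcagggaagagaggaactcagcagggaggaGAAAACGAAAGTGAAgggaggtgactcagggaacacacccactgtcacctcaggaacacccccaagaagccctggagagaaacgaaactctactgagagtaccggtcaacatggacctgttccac
Oas1c: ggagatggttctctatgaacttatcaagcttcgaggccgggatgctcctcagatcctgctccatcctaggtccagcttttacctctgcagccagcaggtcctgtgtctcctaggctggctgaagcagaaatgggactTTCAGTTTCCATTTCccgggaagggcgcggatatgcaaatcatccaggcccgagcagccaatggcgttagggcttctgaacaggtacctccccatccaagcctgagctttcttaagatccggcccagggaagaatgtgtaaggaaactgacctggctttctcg

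In each of the 4 windows 2 matches overlapped, 6 bases apart, to give 1 run of 15 bases. Counted from the promoter table's start, the matches began 20 and 14 bases before it in Oas1a, 18 and 12 bases before it in Oas1g, and 75 and 69 bases before it in Oas3. The run of Oas1a and Oas1g, GAAATGGAAACTGAA, was found in 7 of the 32851 promoters of the table. Oas1c holds the same run on the opposite strand, and there the matches end 8 and 14 bases from the annotated start of Oas1b. Oas3 holds a different run, GAAAACGAAAGTGAA, which no other promoter of the table had. The motif GAAANNGAA was present in 4 of the 6 member promoters (66.7%), in 8.6% of all 32851 promoters and in 7.3% of the 14272 promoters of tested genes. A second motif, TTCNNNGAA, the gamma-activated sequence, was found in Oas1a alone among the 6 members, 98 bases before the same start, and in 8.3% of all promoters. A match describes letters in a window and does not show that a factor binds there. Neither motif was found in the windows of Oasl1 and Oasl2. The promoter table's start lies 97 bases inside the gene bounds for Oasl1 and 8 for Oasl2. The Oasl1 window thus reaches less far before the annotated gene start than the other windows do.

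Oas1a and Oas1g are near copies. Their coding sequences, both of 1101 bases, were identical at 1065 positions (96.7%), and their promoter windows at 87.0%. Of the 50-base windows of the Oas1a transcript, 57.6% occur unchanged in Oas1g transcripts, and 54.7% of those of Oas1g are shared with other genes. How the deposited counting split such reads is not given in the sources used here, so the separate counts of Oas1a and Oas1g are uncertain and their sum is given as well. Oas1c shared 16.3% of its windows with other genes, Oas3 0.8%, and Oas2, Oasl1 and Oasl2 none.

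All 7 members were higher in TGF_KD_CM than in TGF_VEC_CM, in every library. This is the comparison the genes were chosen on, so the count of 7 of 7 past an adjusted p of 0.05 (edgeR's quasi-likelihood test) says nothing further, beside 23.0% of the 14400 tested genes higher and 20.2% lower. Their median log2 fold change was 2.82, against 0.00 for all tested genes (-0.000262). The increases were unequal, from 1.44-fold for Oas1c to 53.5-fold for Oas2. In bulk RNA, fewer cells of a type and less RNA per cell cannot be told apart, here and in each result that follows.

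Oas2, whose protein joins more than one synthetase unit in a chain, had 84.2, 84.5 and 90.2 CPM in TGF_KD_CM, against 1.24, 2.06 and 1.52 CPM in TGF_VEC_CM. The log2 fold change was 5.74 ± 0.16 (SE), or 53.5-fold, the fifth highest of the 14400 genes. Every TGF_KD_CM library stood far above every TGF_VEC_CM library, where between 44 and 76 reads were counted. Oas3, the longest synthetase of the family and in human cells a main source of oligoadenylates, had 103, 94.6 and 104 CPM in TGF_KD_CM, against 9.30, 10.1 and 7.87 CPM in TGF_VEC_CM. Its log2 fold change was 3.46 ± 0.07, or 11.0-fold, from a higher starting level than that of Oas2.

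Oas1a, an active single-unit synthetase, had 67.9, 68.6 and 71.9 CPM in TGF_KD_CM, against 10.5, 10.9 and 8.06 CPM in TGF_VEC_CM. Oas1g, its near copy, had 21.7, 20.2 and 22.1 CPM in TGF_KD_CM, against 3.48, 2.60 and 3.28 CPM in TGF_VEC_CM. The copies moved by nearly the same amount, with log2 fold changes of 2.82 ± 0.07 for Oas1a and 2.77 ± 0.12 for Oas1g. Summed into 1 row, they averaged 90.8 ± 2.85 CPM in TGF_KD_CM and 13.0 ± 1.4 CPM in TGF_VEC_CM (SD, n = 3 each), a log2 fold change of 2.81 ± 0.07. Oas1g made up 23.5% ± 0.746 of the pair's CPM in TGF_KD_CM and 24.4% ± 4.9 in TGF_VEC_CM.

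Oas1c was the member that differed least. It had 4.31, 6.02 and 5.23 CPM in TGF_KD_CM, against 3.09, 4.17 and 3.56 CPM in TGF_VEC_CM, and the lowest TGF_KD_CM library was only just above the highest TGF_VEC_CM library. The log2 fold change was 0.52 ± 0.18, rank 825 of 14400 from the top, while the other 6 members lay between ranks 5 and 67. With each library left out in turn the value lay between 0.39 and 0.63, and it was 0.47 in limma on log2(FPKM + 0.1).

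The OAS-like genes were a high and a middling case. Oasl2, which in the mouse carries both synthetase activity and ubiquitin-like domains, had 82.5, 89.0 and 87.8 CPM in TGF_KD_CM, against 2.39, 1.65 and 2.39 CPM in TGF_VEC_CM. Its log2 fold change was 5.33 ± 0.14, or 40.3-fold, with 61 to 88 reads in the TGF_VEC_CM libraries. Oasl1, which has lost synthetase activity and in the mouse limits translation of Irf7 RNA, had 42.0, 43.5 and 46.8 CPM in TGF_KD_CM, against 8.82, 10.0 and 10.5 CPM in TGF_VEC_CM. The log2 fold change was 2.17 ± 0.08, or 4.50-fold, although Oasl1 stands next to Oasl2 on the chromosome.

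**Figure D1:**
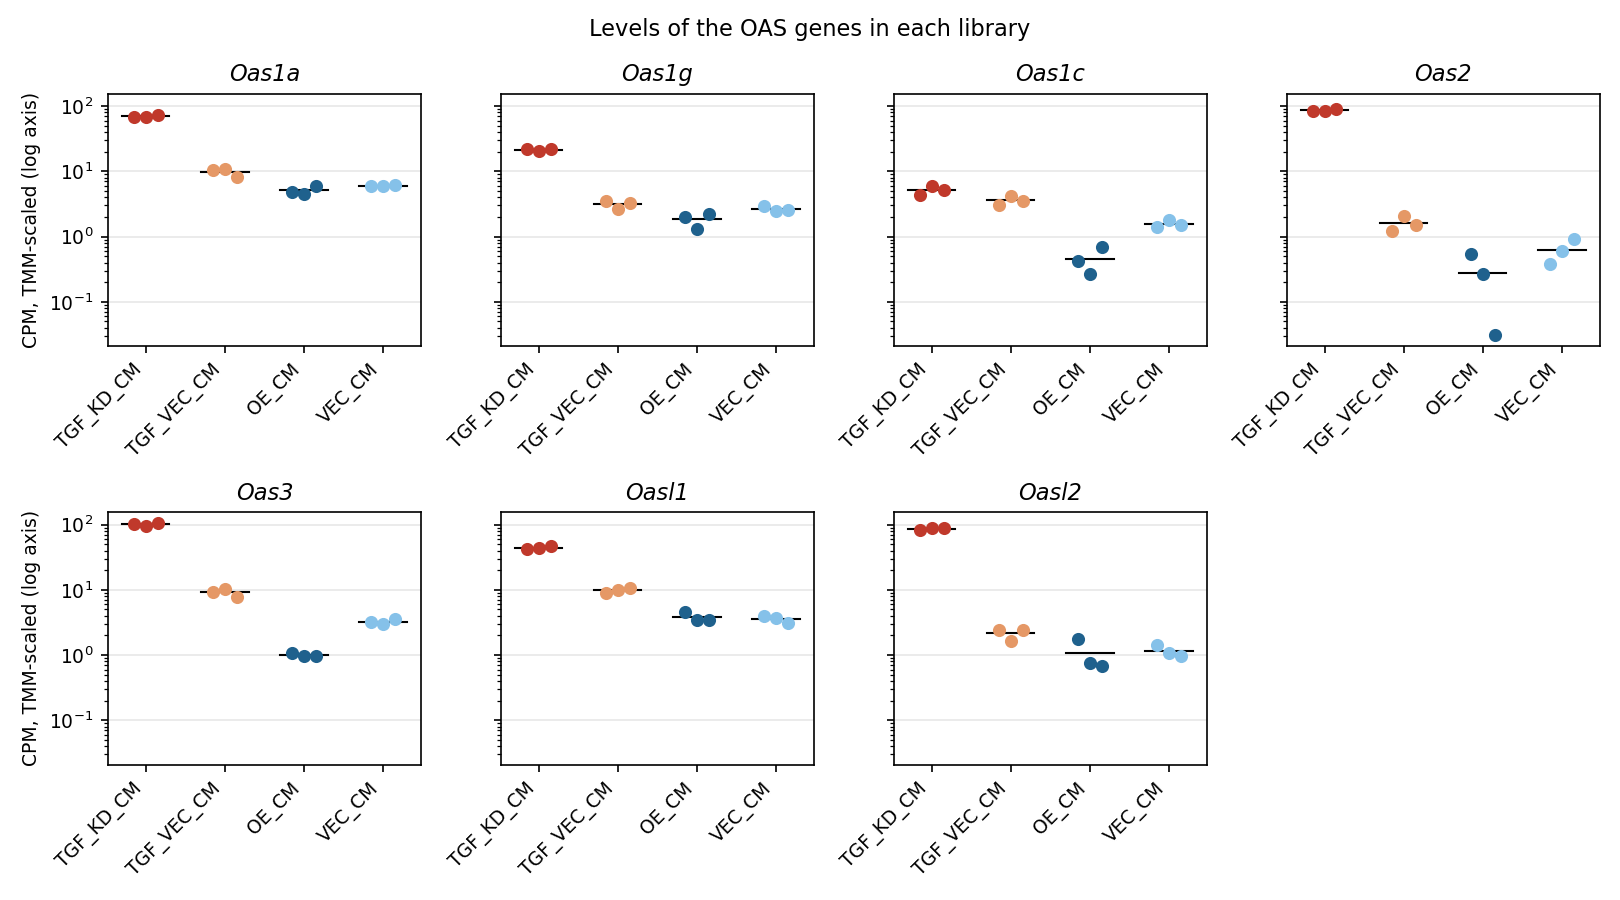
CPM of each member in every library on a log scale, with points for libraries and a line for the group mean; groups run from TGF_KD_CM and TGF_VEC_CM to OE_CM and VEC_CM. The TGF_KD_CM libraries stand above all others for each member, by a wide gap for Oas2 (84.2 to 90.2 CPM, against 1.24 to 2.06 CPM in TGF_VEC_CM) and by a small one for Oas1c (4.31 to 6.02 CPM, against 3.09 to 4.17 CPM in TGF_VEC_CM).

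In OE_CM, against VEC_CM, 3 of the 7 members fell, Oas3, Oas1c and Oas1g. None rose, by edgeR or DESeq2 or at an unadjusted p under 0.05, where 0 were higher. Among all tested genes 28.4% were higher and 25.7% lower in OE_CM, so that 42.9% of the members were lower where 25.7% of all genes were. With 7 genes this gap is 1 or 2 genes wide, and it is not read as particular to the family. The members' median log2 fold change was -0.51, against -0.01 for all tested genes. Under upper-quartile scaling the calls over all genes in OE_CM split into 2798 higher and 5059 lower. With the scaling used here they were 4083 higher and 3695 lower. The members' calls under upper-quartile scaling were 0 higher and 4 lower. That scaling moved the median of all tested genes down to -0.095, so it is no check of the members' direction.

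Oas3 had 1.07, 0.957 and 0.970 CPM in OE_CM, against 3.21, 2.98 and 3.58 CPM in VEC_CM. The groups lay well apart, with a log2 fold change of -1.70 ± 0.16 (adjusted p = 1.44e-14, edgeR's quasi-likelihood test with Benjamini-Hochberg adjustment). Oas1c had 0.423, 0.269 and 0.689 CPM in OE_CM, from 15, 9 and 22 reads, against 1.42, 1.78 and 1.50 CPM in VEC_CM, from 52, 65 and 55 reads. Here too the groups did not overlap, and Oas1c fell by 1.77 ± 0.28 on the log2 scale (edgeR, adjusted p = 1.21e-07). The member that differed least between the groups with TGF-beta1 was thus the one with the largest fitted decrease here; whether the 2 differences are unequal was not tested.

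Oas1g had 1.98, 1.32 and 2.25 CPM in OE_CM, against 2.91, 2.46 and 2.52 CPM in VEC_CM, close but without overlap. Its log2 fold change was -0.51 ± 0.17 (edgeR, adjusted p = 0.00719), and without OE_CM replicate 2 it was -0.32 (adjusted p = 0.133). Oas1a had 4.85, 4.54 and 5.88 CPM in OE_CM, against 5.88, 5.93 and 6.16 CPM in VEC_CM, a log2 difference of -0.24 ± 0.11 that did not pass (edgeR, adjusted p = 0.0548). That call sat at the threshold, with an adjusted p of 0.0493 under the size factors of DESeq2 and 0.00835 under upper-quartile scaling. As a sum, the pair was 6.94 ± 1.14 CPM in OE_CM and 8.62 ± 0.21 CPM in VEC_CM, and it fell by 0.31 ± 0.09 on the log2 scale (edgeR, adjusted p = 0.00273).

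For the other 3 members the groups overlapped, as they also did for Oas1a. Oas2 had few reads, with 19, 9 and 1 reads in OE_CM, against 14, 22 and 33 reads in VEC_CM, and a log2 difference of -1.12 ± 0.55 (edgeR, adjusted p = 0.103). Oasl2 had 1.78, 0.748 and 0.689 CPM in OE_CM, against 1.44, 1.07 and 0.958 CPM in VEC_CM, a difference of -0.08 ± 0.32 (edgeR, adjusted p = 0.845). Oasl1 had 4.52, 3.41 and 3.44 CPM in OE_CM, against 3.98, 3.74 and 3.12 CPM in VEC_CM, a difference of 0.07 ± 0.12 (edgeR, adjusted p = 0.642).

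OE_CM replicate 1 was the highest library of its group for 4 of the 7 members, Oas2, Oas3, Oasl1 and Oasl2, and it also had the highest leukocyte marker sum, 40.9 CPM, against 28.8 and 24.0 CPM in the other OE_CM libraries. Without it 5 members passed as lower in OE_CM, with Oas2 at -2.02 (edgeR, adjusted p = 0.00108) and Oasl2 at -0.69 (adjusted p = 0.0187) joining the 3 others. Without replicate 2 of OE_CM 2 members passed.

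**Figure D2:**
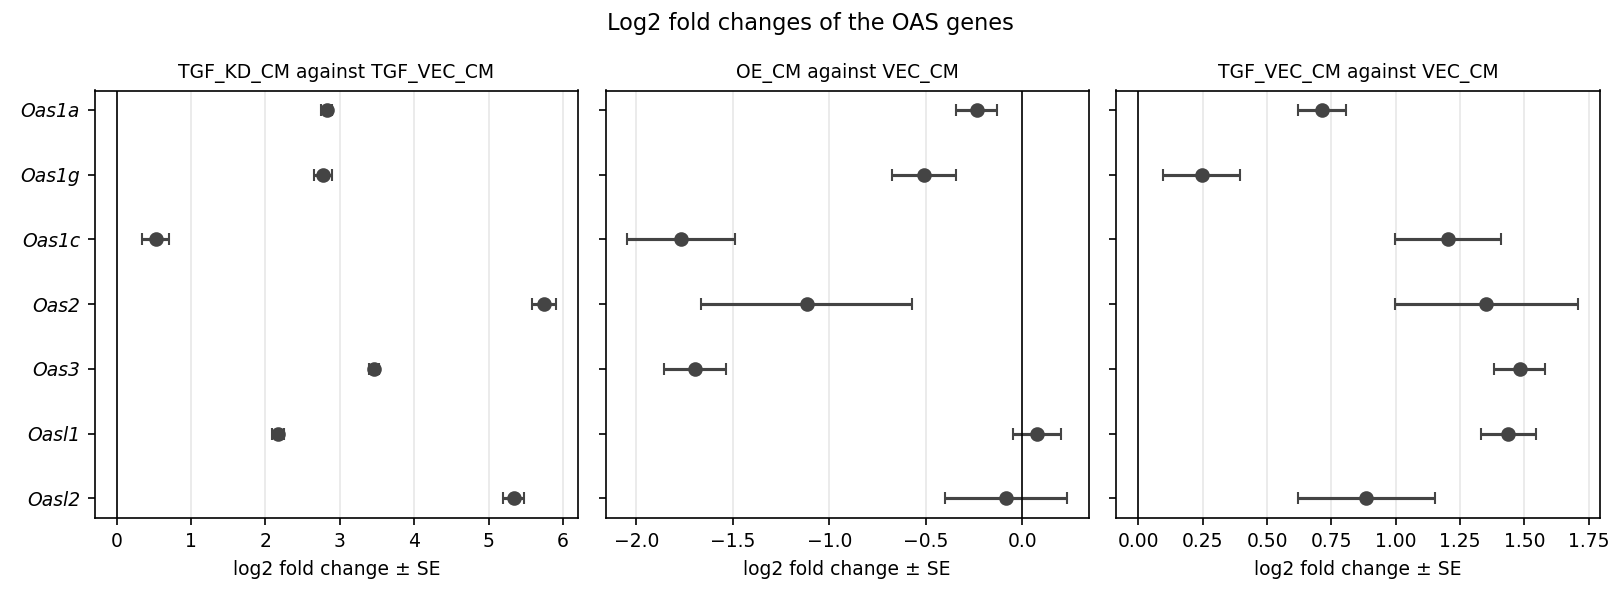
Fitted log2 fold changes of the members with their standard errors, from TGF_KD_CM against TGF_VEC_CM to the other comparisons. Oas2 (5.74) and Oasl2 (5.33) lead among the groups with TGF-beta1, while Oas1c (-1.77) and Oas3 (-1.70) lie lowest in OE_CM against VEC_CM.

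Between the vector groups, 6 of the 7 members (85.7%) were higher in TGF_VEC_CM than in VEC_CM, and all 7 fitted values were above 0. Over all tested genes 28.9% were higher and 29.4% lower. TGF-beta1 and the part of the study a library belongs to cannot be told apart in this comparison. The members' median log2 fold change was 1.20, against 0.00 for all tested genes (0.00405).

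Oas3 had 9.30, 10.1 and 7.87 CPM in TGF_VEC_CM, against 3.21, 2.98 and 3.58 CPM in VEC_CM, and Oasl1 had 8.82, 10.0 and 10.5 CPM in TGF_VEC_CM, against 3.98, 3.74 and 3.12 CPM in VEC_CM. Both rose by a similar factor, with log2 fold changes of 1.48 ± 0.10 for Oas3 (edgeR, adjusted p = 6.98e-21) and 1.44 ± 0.11 for Oasl1 (edgeR, adjusted p = 4.95e-19). Oas1c rose by 1.20 ± 0.21, to 3.60 ± 0.54 CPM in TGF_VEC_CM, against 1.57 ± 0.187 CPM in VEC_CM (SD, n = 3 each; edgeR, adjusted p = 7.89e-07). Oas1c is the member with the larger fitted value here than in TGF_KD_CM against TGF_VEC_CM (0.52), but the comparisons share the TGF_VEC_CM libraries and that gap was not tested.

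Oas1a rose by 0.71 ± 0.09, to 9.83 ± 1.54 CPM in TGF_VEC_CM, against 5.99 ± 0.147 CPM in VEC_CM (edgeR, adjusted p = 1.66e-09). Oas2 rose by 1.35 ± 0.36 (edgeR, adjusted p = 0.00525) and Oasl2 by 0.89 ± 0.27 (edgeR, adjusted p = 0.00953), each from low counts. Oas1g was the member that did not pass, at 0.25 ± 0.15 (edgeR, adjusted p = 0.155), and its libraries overlapped between the groups. It passed when TGF_VEC_CM replicate 2 was left out (0.38, adjusted p = 0.0441). The pair of Oas1a and Oas1g, summed, rose by 0.59 ± 0.08 (edgeR, adjusted p = 8.19e-09).

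The order of the group means was TGF_KD_CM, TGF_VEC_CM, VEC_CM and OE_CM for 6 of the 7 members and for 5.01% of the 14400 tested genes, and its first step is the comparison the members were chosen on. Without that step, the order TGF_VEC_CM, VEC_CM and OE_CM held for 6 of the 7 members and for 21.3% of tested genes. Oasl1 had OE_CM above VEC_CM by less than the spread of the libraries. Next to each other in that order, VEC_CM and OE_CM overlapped for Oas1a, Oas2, Oasl1 and Oasl2, and TGF_VEC_CM and VEC_CM overlapped for Oas1g. For Oas3 and Oas1c all 4 groups were apart, in that order, as they were for 0.521% of tested genes.

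**Figure D3:**
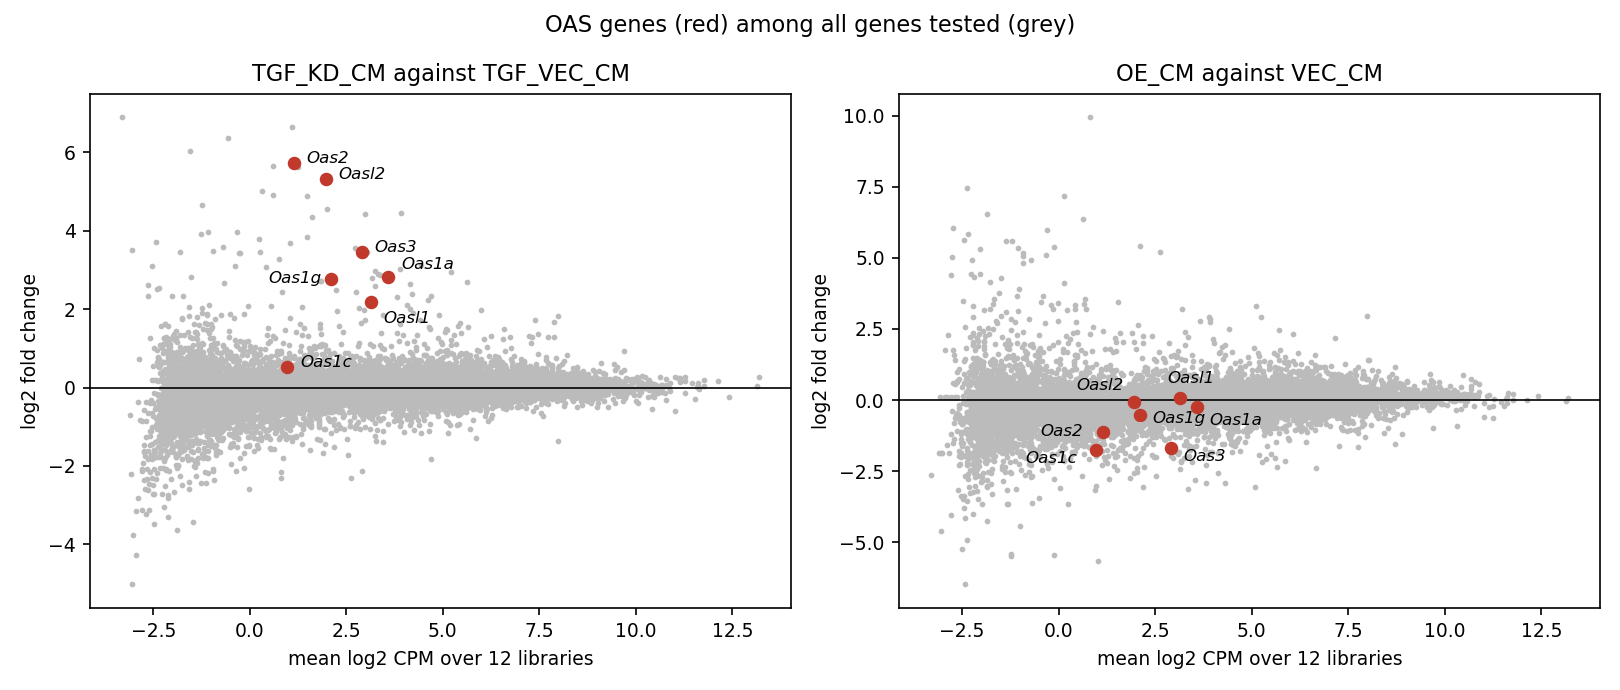
Log2 fold change against mean log2 CPM for all 14400 tested genes (grey) and the 7 members (red), for TGF_KD_CM against TGF_VEC_CM and for OE_CM against VEC_CM. In the first panel 6 members lie above the bulk of the genes and Oas1c (0.52) inside it; in the second the members spread from -1.77 for Oas1c and -1.70 for Oas3, ranks 241 and 269 from the lowest of 14400, to 0.07 for Oasl1.

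Levels were compared between genes as FPKM, which divides by transcript length. Summed over the 7 members the level was 138.7 ± 4.58 FPKM in TGF_KD_CM and 15.9 ± 0.854 FPKM in TGF_VEC_CM (SD, n = 3 each). It was 5.74 ± 0.781 FPKM in OE_CM and 7.87 ± 0.199 FPKM in VEC_CM. Oas1a had the highest FPKM of the family in each of the 4 groups, at 36.1 in TGF_KD_CM, 5.22 in TGF_VEC_CM, 2.49 in OE_CM and 3.09 in VEC_CM, on counts that may include reads of Oas1g.

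The make-up of the family changed with its total. Oas2 supplied 15.4% of the summed FPKM in TGF_KD_CM and 2.54% in TGF_VEC_CM, and Oasl2 20.1% in TGF_KD_CM and 4.47% in TGF_VEC_CM. Oas1a gave 26.0% in TGF_KD_CM and 32.7% in TGF_VEC_CM, Oasl1 14.2% in TGF_KD_CM and 28.1% in TGF_VEC_CM, and Oas1c 1.63% in TGF_KD_CM and 10.1% in TGF_VEC_CM. Oas3 held a similar place in both, with 14.9% in TGF_KD_CM and 12.0% in TGF_VEC_CM. Between the groups without TGF-beta1, Oas3 gave 3.41% in OE_CM and 8.46% in VEC_CM, and Oas1c 3.24% in OE_CM and 8.63% in VEC_CM. The highest and lowest members of TGF_KD_CM differed 15.95-fold in FPKM, and 3.36-fold when Oas1c was left aside, against 12.82-fold in TGF_VEC_CM, with Oas2 the lowest there.

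**Figure D4:**
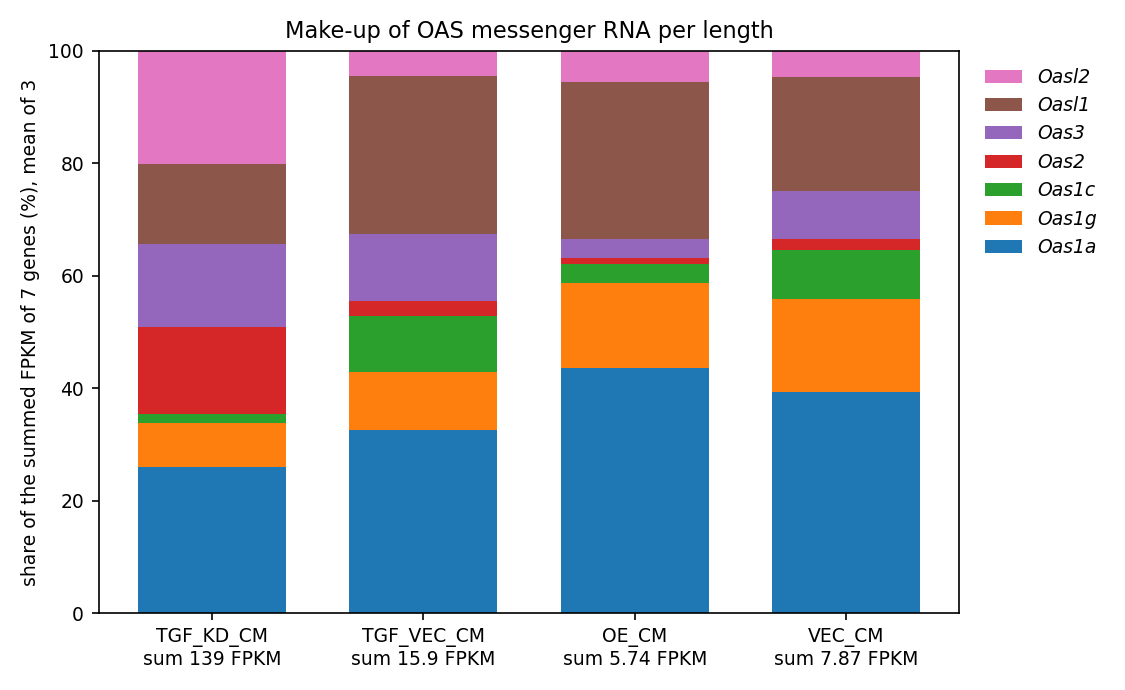
Share of each member in the summed FPKM of the 7 members, as the group mean in percent, for TGF_KD_CM, TGF_VEC_CM, OE_CM and VEC_CM. Oas2 and Oasl2 take 15.4% and 20.1% in TGF_KD_CM, against 2.54% and 4.47% in TGF_VEC_CM, while Oas1a is the largest share in all 4 groups.

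Likeness of pattern was measured as the root mean square distance between log2 CPM profiles over the 12 libraries, each centred on its own mean, with a prior count of 2. Among the members, Oas1a and Oas1g, whose separate counts are uncertain because of shared sequence, were closest (0.29). Oas1c and Oas2 were farthest apart (2.39). Oas1a was also close to Oasl1 (0.36), and the member nearest to Oas2 was Oasl2 (0.95), although these pairs lie in different clusters. Oasl2 itself was slightly nearer to Oas3 (0.92). Of the 14393 other genes, Bst2, which encodes the antiviral membrane protein tetherin, was the nearest to Oas1a (0.14), and Irf9, a subunit of the interferon-activated factor, the nearest to Oasl1 (0.19). Trim30a came first for Oas1g (0.27), Usp18, which takes ISG15 off proteins, for Oas2 (0.64), Isg15 for Oasl2 (0.52) and the immunity-related GTPase Irgm2 for Oas3 (0.48). Nearest to Oas1c were Gm53963 (0.35), the guanine deaminase gene Gda (0.41) and Ttll6 (0.44). The profiles include the libraries the family was chosen on, so these are descriptions.

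Other genes of the oligoadenylate pathway differed by little beside the synthetases in the TGF-beta1 groups. Pde12 and Akap7 encode proteins that can break oligoadenylates down, and Abce1, also tied to the pathway, encodes a factor that recycles ribosomes. Over all tested genes 20.2% to 29.4% were called in each direction of a comparison, so counts among these 3 genes are descriptions. In TGF_KD_CM against TGF_VEC_CM none of the 3 rose and 1 fell (Abce1, -0.11 ± 0.03), while Pde12 was at -0.07 ± 0.06 and Akap7 at -0.16 ± 0.07. Akap7 missed the threshold narrowly (edgeR, adjusted p = 0.0539) and passed it as lower in 9 of 21 alternatives. In OE_CM against VEC_CM 2 rose, Abce1 (0.40 ± 0.03) and Pde12 (0.21 ± 0.05), and Akap7 fell (-1.11 ± 0.08). Akap7 averaged 7.61 CPM in OE_CM and 16.4 CPM in VEC_CM. Pde12 did not pass in limma on log2(FPKM + 1) (adjusted p = 0.0581). In TGF_VEC_CM against VEC_CM Abce1 (0.11 ± 0.03) and Akap7 (0.45 ± 0.07) rose and Pde12 fell (-0.16 ± 0.05), a call lost in 4 of the 21 alternatives, both limma fits and without VEC_CM replicate 3 (-0.13, adjusted p = 0.059) or TGF_VEC_CM replicate 1 (-0.12, adjusted p = 0.0978).

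Other sensors of double-stranded RNA were followed as a list of 7. Like the pathway genes above and the interferon signalling genes below, they were listed with earlier results of these data known. The counts of calls in these lists are therefore descriptions. In TGF_KD_CM against TGF_VEC_CM 6 of 7 rose, none fell and Mavs, the adaptor of the RIG-I-like receptors, was at 0.02 ± 0.05, with a median of 1.47 over the list. Ifih1 (2.71 ± 0.10), Dhx58 (2.60 ± 0.07) and Rigi (2.38 ± 0.05), the RIG-I-like receptors themselves, were higher by about the amounts of Oas1a and Oas1g, and the RNA-activated kinase gene Eif2ak2 by less (1.30 ± 0.03). In OE_CM against VEC_CM 5 of the 7 fell and 1 rose (Adar, an RNA-editing enzyme, 0.19 ± 0.04), with a median of -0.41. The largest decreases there were in Dhx58 (-1.0 ± 0.12) and Rigi (-0.70 ± 0.09). In TGF_VEC_CM against VEC_CM 5 rose and Mavs fell (-0.23 ± 0.05), Tlr3 was at -0.20 ± 0.22, and the list's median was 0.33, against 1.20 for the OAS members. The share of all tested genes called in each direction is as given above, 23.0% higher and 20.2% lower in TGF_KD_CM, 28.4% and 25.7% in OE_CM, and 28.9% and 29.4% in TGF_VEC_CM.

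Of 9 interferon signalling genes, 7 rose and none fell in TGF_KD_CM against TGF_VEC_CM, with a median of 0.40. Irf7, an interferon-induced regulator, led them (4.44 ± 0.15), ahead of Irf9 (2.02 ± 0.06) and Stat2 (1.64 ± 0.05). In OE_CM against VEC_CM 5 fell and 1 rose, with a median of -0.18 and Stat2 at -0.36 ± 0.06. Between the vector groups the list was mixed, and 2 of its genes rose and 3 fell in TGF_VEC_CM against VEC_CM. Irf9 rose there (1.13 ± 0.07) while the receptor-bound kinase gene Jak1 fell (-0.39 ± 0.03), in the same libraries in which 6 of 7 OAS members were higher.

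Interferon transcripts themselves were at the limit of detection. Of 21 interferon genes listed, 5 have a row (Ifnb1, Ifna7, Ifne, Ifnz and Ifng), none had more than 4 counts in any library and none passed the filter. Their counts summed over the 3 libraries came to 1 in TGF_KD_CM and 9 in TGF_VEC_CM, and to 6 in OE_CM and 4 in VEC_CM. A difference in interferon RNA was therefore not detectable at this depth.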

How the data were processed

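The authors deposited a table of whole-number read counts for 24619 gene symbols and a table of FPKM values for the same genes and the 12 libraries. The deposited FPKM equal each count divided by its column total and by 1 length per gene, to within 0.01% for all 24619 genes. The submitters' processing notes name GRCm38 (mm10) as the build. The aligner, counter and strand setting were not given in the sources used here. Titles set the groups, since the treatment labels of some replicates name microRNA numbers that run on.

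Counts were fitted in R 4.3.3 with edgeR 4.0.16 (robust quasi-likelihood, TMM scaling, filterByExpr, 1 mean per group, all 12 libraries), which tested 14400 genes and left out 10219. P-values were two-sided and Benjamini-Hochberg adjusted over all 14400 genes, with a threshold of 0.05. The fit was tested on simulated data. CPM are TMM-scaled, and the 3-count limit covers counting error only. Replicate pairs differed by a chi-square of 2.87 to 4.23 per gene, above sampling noise. Alternatives used limma 3.58.1 on log2(FPKM + 1) and log2(FPKM + 0.1), DESeq2 1.42.0, other scalings and filters, the replicate number as a block, and each library left out.

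The members and all gene lists were chosen with earlier results of these data known. All members, the genes of the named lists, and the 3 genes nearest each member in pattern were eligible to be named. Promoters and positions are from RefSeq GRCm38.p6 (23408 symbols matched, 95.1%), and shared windows and coding identity from GENCODE M21 transcripts. Coding bases were aligned in place of proteins, since no protein table was used here. Some genes of the pathway lists are not reported here.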

Additional observations from a re-analysis of the deposited data

How the results depend on the processing

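Over 294 refitted fold changes of the 7 members (21 alternatives in OE_CM and in TGF_VEC_CM against VEC_CM), none changed direction past the threshold, 277 kept their side of it, 1 lost it and 16 gained it. In TGF_KD_CM against TGF_VEC_CM, the comparison the members were chosen on, the refits are no check of stability; 5 of 147, all of Oas1c, fell under the threshold. For OE_CM against VEC_CM, 3 members were called as reported, and also with the DESeq2 test and with the replicate block. With the size factors of DESeq2, upper-quartile scaling or the filter of 1 CPM, 4 were called (0 higher, 4 lower). The same count came from the 2 groups alone and from limma on log2(FPKM + 1). In 2 settings 5 members were called (0 higher, 5 lower). With every gene of at least 1 count tested, 3788 of all 24619 genes were higher and 3804 lower. With limma on log2(FPKM + 0.1), 2808 of 14722 genes were higher and 4602 lower, so calls there leaned lower in general. The cause was not tested. With 1 library left out at a time, 2 to 5 members were called in OE_CM against VEC_CM, 6 to 7 in TGF_KD_CM against TGF_VEC_CM and 6 to 7 in TGF_VEC_CM against VEC_CM, with medians of -0.69 to -0.32, 2.78 to 2.89 and 1.10 to 1.31. The median in TGF_KD_CM against TGF_VEC_CM was 2.58 with limma on log2(FPKM + 1), and 3.14 with Oas1a and Oas1g summed, an alternative chosen after seeing the data. In TGF_VEC_CM against VEC_CM it was 0.60 with limma on log2(FPKM + 1) and 1.00 on log2(FPKM + 0.1), where the pseudocount shrinks low genes. Among all genes, limma on log2(FPKM + 1) also split the calls in OE_CM towards lower (2773 higher, 4468 lower). The members' median in OE_CM against VEC_CM was -0.23 in that fit, against -0.51 as reported. A stricter motif with 1 more A was in 3.4% of all promoters and still in 66.7% of those of members.

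With the replicate number as a block, 3, 7 and 6 members were called in the same comparisons, and no member's call changed; 7894, 6381 and 8521 genes were called, against 7778, 6229 and 8396 without it. Deviations of same-numbered libraries correlated at 0.000298 to 0.0436, and those of differently numbered libraries at -0.0394 to 0.0163. Of 9 libraries, 7 were closest to their own number. Whether the numbers pair the libraries was not tested. Depth limits Oas2 and Oas1c most, which had 1 to 22 reads in OE_CM.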

Other observations

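Genes that flank the OAS clusters were examined after the members' values had been seen, 3 on each side of each cluster in RefSeq order. Of these 12 genes, 6 were tested. In TGF_KD_CM against TGF_VEC_CM their log2 fold changes ran from -0.14 (2610524H06Rik, edgeR adjusted p = 0.442) to 0.23 (Sppl3, a signal peptide peptidase-like protease, adjusted p = 1.23e-05). The nearest tested neighbour of Oasl1, 2210016L21Rik, 4.2 kb away, was at 0.15 (adjusted p = 0.0655). Beside the larger cluster, Rpl6, a ribosomal protein gene 282.9 kb away, was at 0.08 (adjusted p = 0.00146), and Ptpn11, a tyrosine phosphatase gene 208.9 kb away, at 0.05 (adjusted p = 0.076). The closest genes to that cluster, Dtx1 (18.5 kb) and Rph3a (18.9 kb), did not pass the filter on low counts. In OE_CM against VEC_CM the 6 tested genes ran from -0.35 (2610524H06Rik, edgeR adjusted p = 0.0323) to 0.21 (Rpl6, adjusted p = 4.5e-12). In TGF_VEC_CM against VEC_CM they ran from -0.30 (2210016L21Rik, edgeR adjusted p = 0.000189) to 0.19 (2610524H06Rik, adjusted p = 0.237).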
